A study of Arabidopsis thaliana with 12 samples.

Results

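The circadian clock of Arabidopsis thaliana was followed through 9 genes of its evening arm in leaf RNA of accessions and their hybrids. They were chosen by gene identifier: TOC1 (AT5G61380), GI (AT1G22770), FKF1 (AT1G68050), ZTL (AT5G57360), LKP2 (AT2G18915), ELF3 (AT2G25930), ELF4 (AT2G40080), LUX (AT3G46640) and CHE (AT5G08330). All 9 were found among the 34133 identifiers measured, and all 9 passed the filter on low values, which kept 17203 genes. The RNA came from first leaves of plants aged 14 days, grown on medium with 1% sucrose. The inbred accessions were Col-0 with 4 libraries, Aa-0 with 2 and Per-1 with 2. Col-0 was a parent of both hybrids, Col-0×Aa-0 with 2 libraries and Col-0×Per-1 with 2 libraries. No group carried a transgene or a treatment, per the labels. The hour of harvest is not given in the sources used here, and neither is whether replicates came from separate plants, so p-values reflect the spread of these libraries alone, part of which may be technical.

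The plant clock is a loop of genes that repress one another and peak at different times of day. CCA1 and LHY, a pair of related MYB transcription factors, peak around dawn and repress the evening genes, whose products in turn repress CCA1 and LHY. ELF3, ELF4 and LUX proteins form the evening complex, a night-time repressor of clock and growth genes in which LUX binds the DNA. Levels of such genes in leaf RNA depend on the time of day at which leaves are taken.

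Between 20772 and 21781 genes were above 0 per library, and relative depth, taken from the steps between low values with Col-0 replicate 1 as the unit, was lowest at 0.642 for Col-0×Per-1 replicate 2 and highest at 1.13 for Col-0 replicate 4. Absolute depth is unknown, because the values are FPKM, fragments scaled to transcript length and library size, and not counts. The labelled tissue was checked with markers. The summed level of 7 leaf mesophyll genes lay between 35603 and 60549 FPKM, while all 8 root markers and all 7 markers of shoot meristem and flower stayed below 1 FPKM in every library. RBCS1A, a small subunit of Rubisco and 1 of the 7 leaf genes, was listed at 0 for replicates 1 and 2 of Col-0 and at 16409 to 25067 FPKM elsewhere.

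The promoters are shown first because the sequence ahead of a clock gene is where the dawn factors and the evening complex are known to bind. The levels below fall into 2 kinds, wide and flat, and whether the motifs go with either kind was not tested. The 500 bases before each annotated gene start were searched on both strands in RefSeq's TAIR10.1 genome, for 27443 protein-coding genes including all 9 here. The evening element AAAATATCT, the sequence known for binding of CCA1 and LHY, stood before 3 of the 9 genes, TOC1, FKF1 and LUX, and before 4.44% of all genes. The letters GATACG or GATTCG, known for binding of LUX, stood before 5 of the 9, TOC1, LKP2, ELF3, ELF4 and LUX, and before 22.6% of all genes. The genes with the evening element were all wide, as were those with LUX-binding letters except LKP2, which was flat. GI, a wide gene, held neither in this window. Promoters of Aa-0 and Per-1 were not read. The 80-base stretches around each evening element, and around the LUX-binding letters of ELF4, are printed 5′ to 3′ on the strand of the gene, with the motif in capitals. In TOC1 and in the second FKF1 stretch the evening element lies on the opposite strand and so appears as its reverse complement, AGATATTTT.
TOC1, chr5:24674776-24674855, plus strand: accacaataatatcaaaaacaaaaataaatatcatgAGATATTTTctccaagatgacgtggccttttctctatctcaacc
FKF1, chr1:25508230-25508309, plus strand: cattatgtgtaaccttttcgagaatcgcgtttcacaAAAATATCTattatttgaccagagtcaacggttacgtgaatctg
FKF1, chr1:25508417-25508496, plus strand: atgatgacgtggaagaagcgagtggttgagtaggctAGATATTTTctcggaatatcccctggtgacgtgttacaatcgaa
LUX, chr3:17182953-17183032, plus strand: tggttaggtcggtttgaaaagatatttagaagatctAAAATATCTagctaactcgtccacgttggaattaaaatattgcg
ELF4, chr2:16735004-16735083, minus strand: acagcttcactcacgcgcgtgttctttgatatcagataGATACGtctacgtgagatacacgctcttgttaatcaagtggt

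All 5 stretches lie outside every annotated gene. Counted from the gene start, the evening element of TOC1 began at position -151 and that of LUX at -53, while FKF1 held a pair at -373 and -186. The LUX-binding letters of ELF4 began at -92. The related CCA1-binding letters AAAAATCT stood before LKP2 alone among the 9 genes and before 12.5% of all genes, and the G-box CACGTG before LUX alone and before 9.35% of all genes. The letters GGTCCCAC, known for TCP factors such as CHE, stood before 0 of the 9 and before 0.517% of all genes. GI, ZTL and CHE held none of these letters in the window searched, and a match or its lack is a description of the sequence only.

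**Figure D1:**
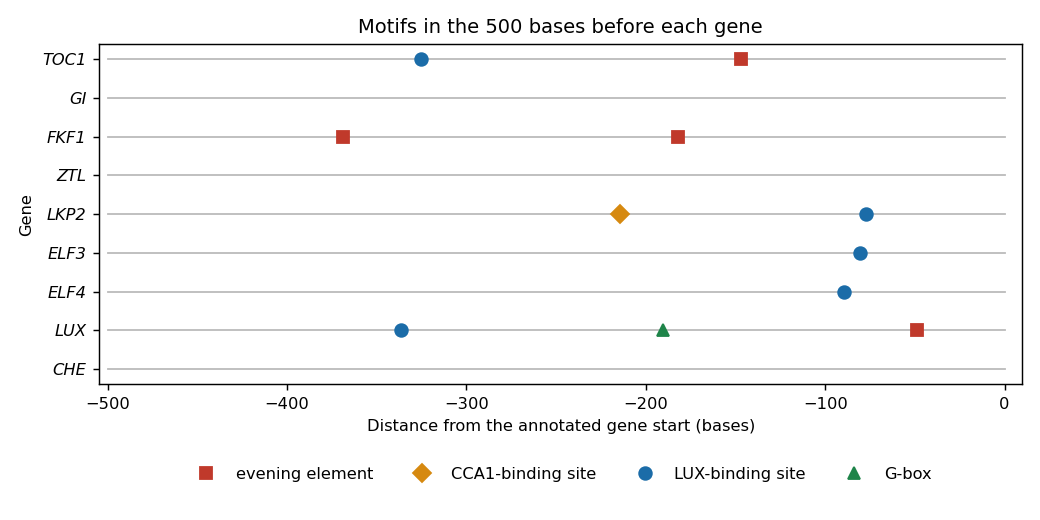
Motifs found in the 500 bases before each of the 9 genes, by distance from the annotated gene start in bases (horizontal axis), 1 line per gene and 1 marker shape per motif. FKF1 carries 2 evening elements, TOC1 and LUX carry 1 each, and GI, ZTL and CHE carry none of the motifs searched.

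TOC1, a pseudo-response regulator that represses CCA1 and LHY, had values of 9.15 and 5.95 FPKM in the first pair of Col-0 libraries, replicates 1 and 2, and of 58.45 and 41.78 FPKM in the second pair, replicates 3 and 4. It stood at 15.39 and 16.29 FPKM for Aa-0, 12.61 and 19.04 for its hybrid with Col-0, 9.69 and 8.96 for Per-1, and 6.2 and 4.39 for the hybrid of Per-1. Col-0 replicates 3 and 4 were above every other library, and Col-0 replicates 1 and 2 overlapped both Per-1 and Col-0×Per-1. The highest library was 13.3-fold above the lowest. In RNA of whole leaves, fewer cells expressing a gene and less RNA per cell cannot be told apart.

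LUX, the DNA-binding MYB-like member of the evening complex, had 5.96 and 3.55 FPKM in Col-0 replicates 1 and 2 against 67.6 and 50.45 FPKM in replicates 3 and 4. Aa-0 had 16.31 and 14.13 FPKM, its hybrid 14.23 and 22.85, Per-1 13.98 and 9, and the hybrid of Per-1 4.92 and 2.47. The lowest Aa-0 value lay just above the highest Per-1 value, and Col-0×Per-1 overlapped Col-0 replicates 1 and 2 at the bottom of the order. LUX spanned 27.4-fold over the 12 libraries.

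ELF4, a small protein of the same complex, had the widest span of the 9 genes, 61.0-fold. The first Col-0 pair had 3.14 and 2.28 FPKM and the second pair 139.07 and 93.26 FPKM. The other libraries gave 30.14 and 20.4 FPKM for Aa-0, 21.47 and 25.38 for its hybrid with Col-0, 5.45 and 5.83 for Per-1, and 3.71 and 2.39 for the hybrid of Per-1. Aa-0 and its hybrid overlapped, Per-1 lay below both without overlap, and Col-0×Per-1 overlapped only Col-0 replicates 1 and 2.

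ELF3, the scaffold that joins ELF4 and LUX, moved over a narrower range of 5.36-fold. It read 5.49 and 5.64 FPKM in the first Col-0 pair and 22.18 and 20.74 FPKM in the second. Aa-0 had 14.52 and 12.95 FPKM, its hybrid 12.4 and 14.65, Per-1 9.06 and 7.42, and the hybrid of Per-1 5.18 and 4.14. Of the evening complex genes, ELF3 was the one in which both Col-0×Per-1 libraries lay below every other library, Col-0 replicates 1 and 2 included.

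GI, a large plant-specific protein that stabilises ZTL and acts in day-length sensing, read 17.49 and 13.73 FPKM in the first Col-0 pair and 58.72 and 61.57 FPKM in the second. Values were 40.04 and 38.41 FPKM for Aa-0, 37.92 and 41.97 for its hybrid with Col-0, 26.02 and 28.33 for Per-1, and 21.83 and 18.21 for the hybrid of Per-1. In GI the bottom of the order was Col-0 replicates 1 and 2, which did not overlap Col-0×Per-1. Its span was 4.48-fold.

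The F-box proteins FKF1, ZTL and LKP2 are related blue-light photoreceptors that mark other proteins for breakdown, FKF1 acting on the CDF repressors of flowering and ZTL on TOC1 and PRR5. FKF1 read 2.22 and 1.05 FPKM in the first Col-0 pair and 52.93 and 55.03 FPKM in the second. It had 12.62 and 18.03 FPKM for Aa-0, 15.25 and 26.73 for its hybrid with Col-0, 7.79 and 6.17 for Per-1, and 2.22 and 1.5 for the hybrid of Per-1. FKF1 therefore followed the order of TOC1, LUX and ELF4, with a span of 52.4-fold.

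ZTL had 29.51, 30.69, 28.96 and 26.47 FPKM in Col-0 replicates 1 to 4, and 26.29 to 30.61 FPKM outside Col-0. All neighbouring groups in its order overlapped, and its highest library was 1.17-fold above its lowest. LKP2, with 10.93, 12.24, 11.51 and 9.93 FPKM in Col-0 and 9.24 to 11.5 FPKM elsewhere, spanned 1.32-fold. Neighbouring LKP2 groups overlapped as well, and within this F-box family FKF1 alone had a wide span.

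CHE, a TCP transcription factor known to repress CCA1, read 41.61 and 29.44 FPKM in the first Col-0 pair and 56.01 and 41.44 FPKM in the second. It had 47.72 and 33.84 FPKM for Aa-0, 51.4 and 44.9 for its hybrid with Col-0, 52.28 and 42.44 for Per-1, and 45.64 and 42.29 for the hybrid of Per-1. Neighbouring groups overlapped throughout, and the span was 1.90-fold. Of the 9 genes, 6 had wide spans (TOC1, GI, FKF1, ELF3, ELF4 and LUX) and 3 were flat (ZTL, LKP2 and CHE). The 6 shared 1 order of groups, with Col-0 replicates 3 and 4 at the top, then Aa-0 and its hybrid, which overlapped in each of the 6, then Per-1, and Col-0×Per-1 with Col-0 replicates 1 and 2 at the bottom.

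**Figure D2:**
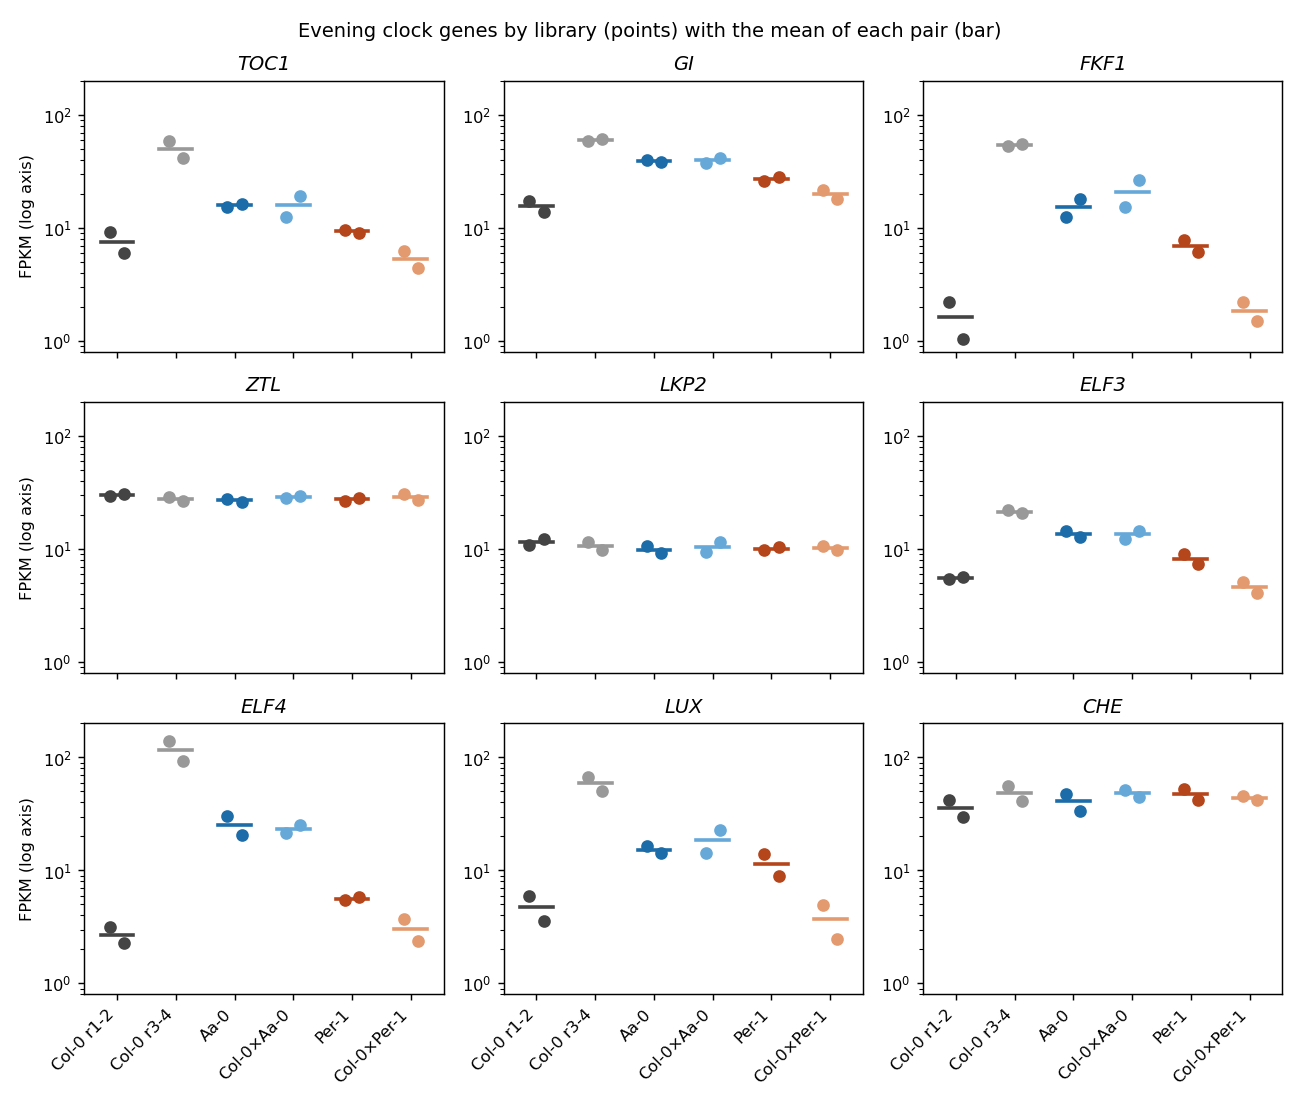
FPKM of each of the 9 genes in the 12 libraries (points, log axis), with the mean of each pair of libraries as a bar and Col-0 replicates 1 and 2 (r1-2) drawn apart from replicates 3 and 4 (r3-4). ELF4 runs from 2.28 to 139.07 FPKM and ZTL from 26.29 to 30.69 FPKM.

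Some reads may be shared with neighbours, since the library kit does not mark the strand and 4 of the 9 genes overlap another on the opposite strand. FKF1 overlaps AT1G68060, which stood between 9.82 and 18.84 FPKM in all libraries, so the lowest FKF1 values lie below those of its neighbour. LUX overlaps AT3G46650 at 0.08 to 0.35 FPKM, ELF3 overlaps AT2G25940 at 0.18 to 0.62 FPKM and an antisense RNA, and LKP2 overlaps a non-coding RNA at 0.71 to 2.7 FPKM. The share of reads assigned across these overlaps was not tested.

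The Col-0 libraries differed among themselves more than any other group did in the 6 wide genes. Replicates 3 and 4 were higher than replicates 1 and 2 by 42.9-fold for ELF4, from a mean of 2.71 ± 0.608 to 116 ± 32.4 FPKM (SD, n = 2), and by 33.0-fold for FKF1, from 1.64 ± 0.827 to 54.0 ± 1.48 FPKM (SD, n = 2). The ratio was 12.4-fold for LUX, 6.64-fold for TOC1, 3.86-fold for ELF3 and 3.85-fold for GI. It was 1.37-fold for CHE, and ZTL and LKP2 were at 0.921-fold and 0.925-fold; the values of the Col-0 pairs overlapped for CHE and LKP2 but not for ZTL. The labels give no reason to divide the Col-0 libraries, and the division was proposed with values of clock genes in view, so it is a description with no test. RBCS1A, at 0 in the first pair only, moved with this division, and its part in these differences was not tested.

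Read against all genes, 6 of the 9 lay at least 1 apart on the log2(FPKM + 1) scale with no overlap between the Col-0 pairs, all 6 higher in replicates 3 and 4, where 5.46% of the 17203 genes did so in either direction. The median difference of the 9 genes was 1.89, against 0.0387 over all genes. Among 15 other clock genes of the morning and day, 10 were apart in this way, 8 of them lower and 2 higher in replicates 3 and 4. CCA1 read 105.92 and 116.47 FPKM in the first Col-0 pair and 8.58 and 9.01 FPKM in the second. LHY had 50.59 and 51.48 FPKM against 1.57 and 1.85 FPKM. These dawn genes were thus high in the Col-0 libraries in which the 6 evening genes were low.

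The pseudo-response regulator genes related to TOC1, which peak one after another through the day, differed between the Col-0 pairs in direction as well as size. PRR9, the earliest, was at 28.61 and 33.83 FPKM in the first Col-0 pair, against 8.69 and 9.85 FPKM in the second. PRR7 differed least, with 74 and 75.58 against 91.86 and 94.36 FPKM. PRR5, a later one, was at 9.61 and 5.72 against 67.83 and 69.39 FPKM. PRR9 therefore went with CCA1 and LHY across the Col-0 libraries, and PRR5 with the 6 evening genes.

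In the other groups CCA1 stood at 22.83 and 25.41 FPKM for Aa-0, 21.78 and 26.25 for Per-1, 17.36 and 19.33 for the hybrid of Aa-0, and 44.77 and 39.12 for that of Per-1. LHY was at 4.39 and 5.47 FPKM for Aa-0, 5.84 and 6.05 for Per-1, 4.7 and 4.46 for the hybrid of Aa-0, and 10.22 and 8.68 for that of Per-1. Both dawn genes were thus higher in both Col-0×Per-1 libraries than in Per-1, Aa-0 and Col-0×Aa-0, while the 6 evening genes were lower there. PRR5 was at 54.12 and 42.73 FPKM for Aa-0, 40.5 and 70.53 for its hybrid with Col-0, 26.69 and 25.52 for Per-1, and 13.93 and 7.06 for the hybrid of Per-1. PRR9 was at 23.83 and 20.78, 23.37 and 17.28, 11.56 and 18.73, and 31.94 and 29.76 FPKM in the same groups, and PRR7 lay between 97.88 and 110.96 FPKM in all 8 libraries. PRR5 kept the order of the 6 evening genes except that 1 Col-0×Aa-0 library lay above the second Col-0 pair, and PRR9 had Col-0×Per-1 and the first Col-0 pair at its top.

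Other groups of genes tied to the evening arm were read between the Col-0 pairs in the same way. Of 5 tested relatives of the evening genes, 3 were apart and higher in replicates 3 and 4: BOA, a close relative of LUX, ELF4-L4, a relative of ELF4, and JMJD5. Both clock outputs that peak in the evening, the RNA-binding proteins GRP7 and GRP8, were apart and higher. GRP7 read 65.66 and 55.78 FPKM in the first Col-0 pair and 1972 and 1782 FPKM in the second. Of 4 tested day-length genes downstream of GI and FKF1, 3 were lower in replicates 3 and 4, the repressors CDF1, CDF2 and CDF3, while CO and FT did not pass the filter on low values. Of 6 targets and partners of the evening complex 1 was apart, PIF5, a growth-promoting factor, and it was lower. PIF4, of the same list, differed by -0.26 on the log2(FPKM + 1) scale and was not apart. Of 5 partners in protein breakdown and light sensing 0 were apart, and of the 7 leaf mesophyll genes 2 were, RCA lower and RBCS1A higher.

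**Figure D3:**
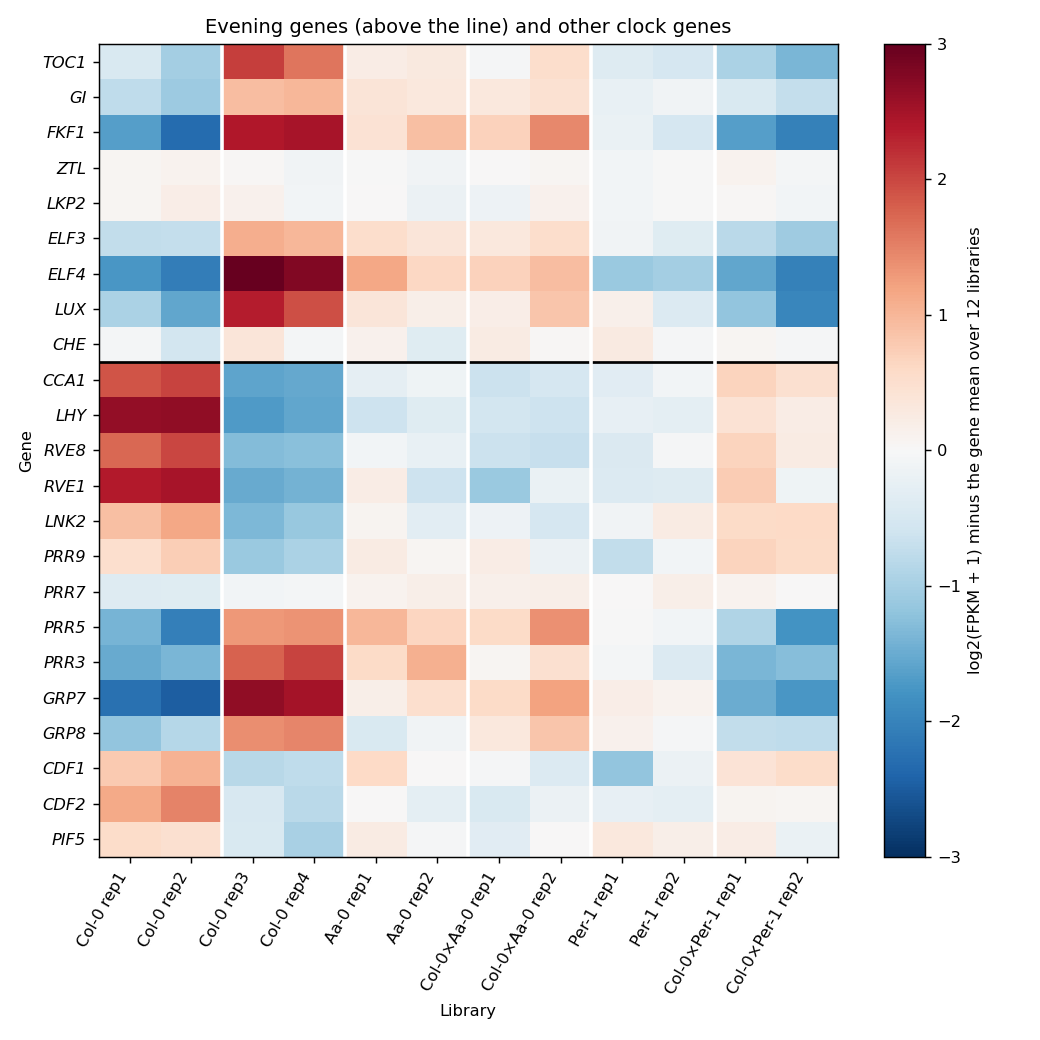
Level of the 9 evening genes (above the line) and 14 other clock and output genes (below it) in each library, as log2(FPKM + 1) minus the mean of the gene over the 12 libraries; red is above and blue below that mean, and colours stop at 3. Col-0 replicates 1 and 2 are blue for TOC1, GI, FKF1, ELF3, ELF4 and LUX and red for CCA1 and LHY, and Col-0 replicates 3 and 4 show the opposite.

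Genes with profiles most like those of the 6 wide genes were sought over the 12 libraries among tested genes whose mean reached 5 FPKM, by the root mean square difference between centred log2(FPKM + 1) profiles. For TOC1 the nearest were LETM1, at 0.22, BBX13, at 0.27, and TAG1, at 0.28. For LUX they were BBX8, at 0.33, and then ACA8 and TOC1, both at 0.36. BBX8 was also second for FKF1, at 0.39 after GRP7 at 0.33, and second for ELF4, at 0.54 after FKF1 at 0.50. The third was LUX for FKF1, at 0.49, and AT4G30650 for ELF4, at 0.58. BBX8 ran from 0.95 to 31.83 FPKM over the libraries.

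The nearest profiles to GI were SEX1, at 0.11, ABF1, at 0.12, and AT1G68220, at 0.13. SEX1, an enzyme that starts the breakdown of leaf starch, ran from 63.47 to 256.42 FPKM. For ELF3 they were AT3G58570, at 0.16, AT5G23575, at 0.17, and AT1G31850, at 0.19. Thus TOC1, FKF1 and LUX came up among the nearest to another of the 6, while the nearest to TOC1, GI and ELF3 lay outside the 9. These distances describe 12 libraries that share the Col-0 split.

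The groups were next compared as the labels give them, with the 4 Col-0 libraries as 1 group. Differences were tested with limma on log2(FPKM + 1) over all 17203 genes, with the threshold set at an adjusted p (Benjamini-Hochberg) of 0.05. On this scale the change of low genes is understated. In all 10 comparisons 0 of the 9 genes were called, and at an unadjusted p under 0.05 there were 0 in 8 comparisons and 1 in each of the other two. No other tool was run, as the values are not counts. The comparisons share the Col-0 libraries and one estimate of the spread, and so are not independent.

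Between Aa-0 and Col-0, where 16.7% of all genes were called, the median of the 9 genes was -0.0308 against -0.136 over all genes. Between Per-1 and Col-0, with 25.7% called, the medians were -0.399 and -0.191. ELF4 shows the width of the error, with a difference of 0.33 ± 1.39 (SE) for Aa-0 minus Col-0 and a 95% interval from -2.77 to 3.43. The interval thus covered large differences in both directions. For ZTL, by contrast, the intervals of all comparisons lay within -0.30 and 0.34, for LKP2 within -0.41 and 0.37, and for CHE within -0.81 and 0.90.

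Against Col-0, the hybrid Col-0×Aa-0 (2.31% of genes called) had a median of 0.221 over the 9 genes and -0.105 over all genes. For Col-0×Per-1 against Col-0 (19.9% called) the medians were -1.11 and -0.228. TOC1 was the 1 gene at an unadjusted p under 0.05 there, at -1.72 ± 0.75 (SE; limma adjusted p = 0.124). Without Col-0 replicate 2 that limma comparison called TOC1, with an adjusted p of 0.0365.

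Against the other parent, Col-0×Aa-0 minus Aa-0 (2.74% called) had medians of 0.0626 for the 9 genes and 0.0318 for all, and Col-0×Per-1 minus Per-1 (4.75% called) had -0.708 and -0.0458. Aa-0 minus Per-1 (9.96% called) had 0.515 and 0.0539. Between the hybrids, Col-0×Aa-0 minus Col-0×Per-1 (2.04% called) had 1.36 and 0.126, and ELF3 was the 1 gene at an unadjusted p under 0.05, at 1.36 ± 0.58 (SE; limma adjusted p = 0.268).

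The mid-parent, taken as the mean of both parents' fitted levels on the FPKM scale, is the level of a hybrid midway between its parents, and comparisons with it ask how far a hybrid leaves that level. Col-0×Aa-0 minus its mid-parent (0.238% called) had medians of 0.109 for the 9 genes and -0.0491 for all. Col-0×Per-1 minus its mid-parent (2.57% called) had -0.921 and -0.143. The difference between the deviations of the hybrids was tested as well, with 0 of 9 called by limma, 0 at an unadjusted p under 0.05 and 0.233% of all genes called, and medians of 1.03 and 0.0992. In all of these comparisons the errors of the 6 wide genes carry the spread between the Col-0 pairs.

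Each pair of Col-0 libraries was therefore also taken alone as Col-0. The calls that follow rest on the Col-0 division described above. With 1 pair left out, their errors no longer hold the difference between the pairs, which reached 4.96 for ELF4 on the log2(FPKM + 1) scale. For ELF4 in Aa-0 minus Col-0, the SE was 1.39 with Col-0 as 1 group. The calls therefore do not separate genotype from such variation between libraries of 1 accession. Against replicates 1 and 2, the 6 wide genes were called higher in Aa-0, where 24.2% of all genes were called. ELF4 was higher by 2.81 ± 0.22 (SE; limma adjusted p = 5.15e-05) and FKF1 by 2.65 ± 0.31 (SE; limma adjusted p = 0.000469). Against replicates 3 and 4 the same 6 genes were called lower in Aa-0, with 20.6% of all genes called. ELF4 then stood at -2.15 ± 0.25 (SE; limma adjusted p = 0.000758) and FKF1 at -1.77 ± 0.27 (SE; limma adjusted p = 0.00296), so the direction turned with the Col-0 pair.

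The hybrid Col-0×Aa-0 gave similar values. Against replicates 1 and 2 all 6 wide genes were called higher, with 13.8% of all genes called, from 0.98 ± 0.24 for TOC1 (SE; limma adjusted p = 0.0282) to 3.05 ± 0.31 for FKF1 (SE; limma adjusted p = 0.000732). Against replicates 3 and 4, 5 of the 9 were called lower, with 3.55% of all genes called. ELF3 was the wide gene not called, at -0.63 ± 0.15 (SE; limma adjusted p = 0.0592). Here too the direction of the called genes turned with the pair.

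In Per-1, 5 of the 9 were called higher than Col-0 replicates 1 and 2, where 29.0% of all genes were called, and TOC1 was not, at 0.30 ± 0.24 (SE; limma adjusted p = 0.372). The called differences ran from 0.49 ± 0.15 for ELF3 (SE; limma adjusted p = 0.0379) to 1.63 ± 0.31 for FKF1 (SE; limma adjusted p = 0.00529). Against replicates 3 and 4 all 6 wide genes were called lower in Per-1, with 31.9% of all genes called, and ELF4 was at -4.11 ± 0.25 (SE; limma adjusted p = 1.6e-05). Per-1 thus lay between the Col-0 pairs for the 5 genes called on both sides, as Aa-0 did for all 6.

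Col-0×Per-1 was set against each Col-0 pair in the same way. Against replicates 1 and 2 limma called 0 of the 9, with 1 (GI, at 0.34 ± 0.14, SE) at an unadjusted p under 0.05 and 18.5% of all genes called. Against replicates 3 and 4 all 6 were called lower, with 31.2% of all genes called, from -1.55 ± 0.12 for GI (SE; limma adjusted p = 0.000178) to -4.85 ± 0.25 for ELF4 (SE; limma adjusted p = 3.48e-05). A p that misses the threshold does not show equal levels, and the interval for FKF1 against replicates 1 and 2 is set by an SE of 0.31 around 0.14.

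**Figure D4:**
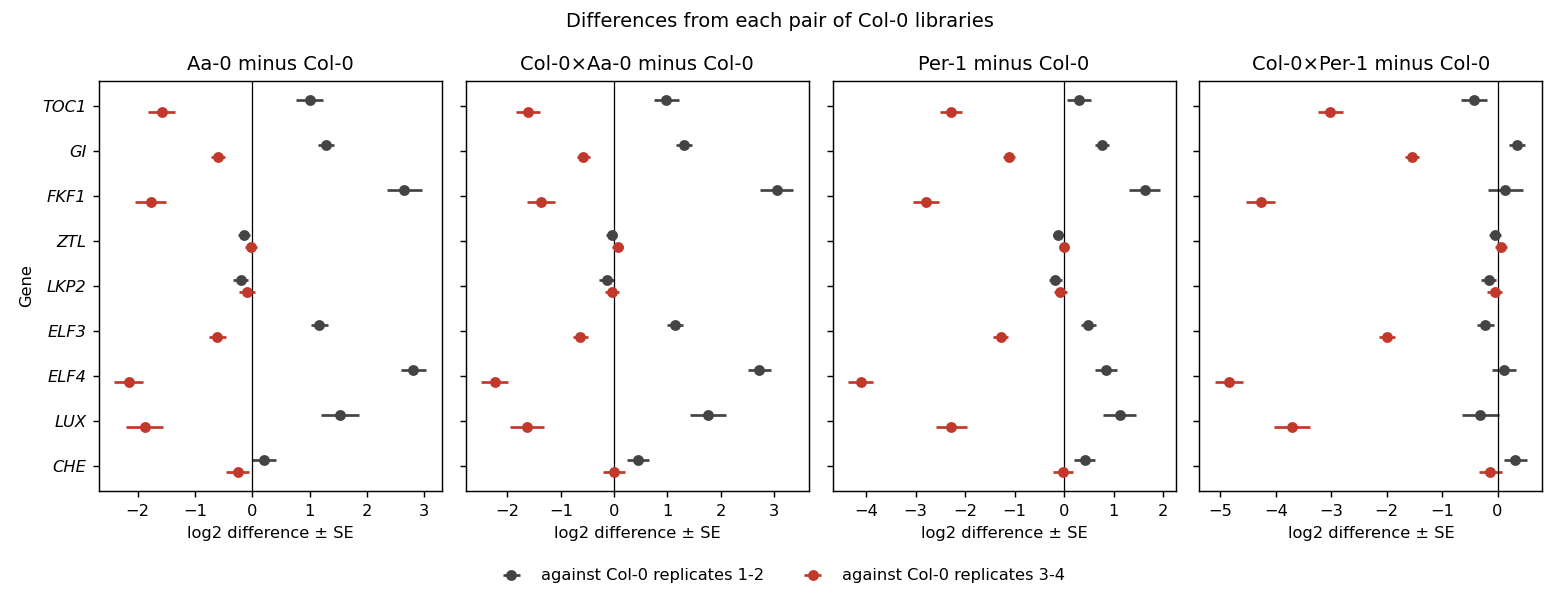
Log2(FPKM + 1) difference (± SE) of Aa-0, Col-0×Aa-0, Per-1 and Col-0×Per-1 from Col-0 replicates 1 and 2 (dark) and from Col-0 replicates 3 and 4 (red), for the 9 genes; each panel has its own horizontal scale. ELF4 in Aa-0 lies at 2.81 against the first pair and at -2.15 against the second, while ZTL and LKP2 stay near 0.

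The mid-parent comparisons moved in the same way. With replicates 1 and 2 as Col-0, limma called 0 of the 9 in Col-0×Aa-0 against its mid-parent, with 5 at an unadjusted p under 0.05 and 2.2% of all genes called. FKF1 was at 1.19 ± 0.29 (SE; limma adjusted p = 0.082) and GI at 0.53 ± 0.13 (SE; limma adjusted p = 0.0823). With replicates 3 and 4 as Col-0, 0 were called again, with 6 at an unadjusted p under 0.05 and 0.264% of all genes called, and ELF4 was at -1.53 ± 0.23 (SE; limma adjusted p = 0.0505). The sign for the 6 wide genes was opposite for the 2 choices of Col-0.

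For Col-0×Per-1 the sign of the 6 wide genes was the same under both. With replicates 1 and 2 as Col-0, limma called 0 of the 9, with 4 at an unadjusted p under 0.05 (TOC1, FKF1, ELF3 and LUX) and 3.48% of all genes called. LUX was at -0.98 ± 0.30 (SE; limma adjusted p = 0.0988) and ELF3 at -0.48 ± 0.13 (SE; limma adjusted p = 0.0765). With replicates 3 and 4 as Col-0, all 6 wide genes were called lower than the mid-parent, with 15.1% of all genes called. ELF4 was then at -3.93 ± 0.24 (SE; limma adjusted p = 0.000297) and GI at -1.09 ± 0.11 (SE; limma adjusted p = 0.00126).

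Comparisons among Aa-0, Per-1 and the hybrids need no Col-0 level, and were also tested with the Col-0 pairs as separate groups, so that the Col-0 split no longer entered the estimate of the spread. The differences are the same as with Col-0 as 1 group and only their errors shrink. In each comparison of this kind the errors hold only the spread within pairs of libraries. They leave out the difference between the Col-0 pairs of 1 accession, which reached 4.96 for ELF4 on the same scale. Whether the other groups vary as widely was not tested, so the calls do not separate genotype from such variation. Between the hybrids, all 6 wide genes were called higher in Col-0×Aa-0 than in Col-0×Per-1, where 9.37% of all genes were called. FKF1 was higher by 2.90 ± 0.29 (SE; limma adjusted p = 0.000657), ELF4 by 2.61 ± 0.25 (SE; limma adjusted p = 0.000449) and LUX by 2.07 ± 0.33 (SE; limma adjusted p = 0.00642). TOC1 was higher by 1.41 ± 0.25 (SE; limma adjusted p = 0.0101), ELF3 by 1.36 ± 0.14 (SE; limma adjusted p = 0.000691) and GI by 0.97 ± 0.14 (SE; limma adjusted p = 0.00336). In each of them both Col-0×Aa-0 libraries lay above both Col-0×Per-1 libraries. The calls of TOC1 and LUX were lost, and 4 were left, when replicate 2 of either hybrid was left out.

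Between the accessions, 4 of the 9 were called higher in Aa-0 than in Per-1, where 16.5% of all genes were called. ELF4 was higher by 1.96 ± 0.25 (SE; limma adjusted p = 0.000712), ELF3 by 0.68 ± 0.14 (SE; limma adjusted p = 0.0102), GI by 0.51 ± 0.14 (SE; limma adjusted p = 0.0303) and FKF1 by 1.02 ± 0.29 (SE; limma adjusted p = 0.0433). TOC1 was at 0.71 ± 0.25 (SE; limma adjusted p = 0.0859) and LUX at 0.40 ± 0.33 (SE; limma adjusted p = 0.458). ELF4 was called without any 1 of the 12 libraries, but without Per-1 replicate 2 it was called alone. ELF3 and ELF4 alone were called without Per-1 replicate 1 or Aa-0 replicate 2. Without Aa-0 replicate 1 the call of GI was lost, and without Col-0 replicate 3 or 4 or either Col-0×Per-1 library that of FKF1. Of the dawn genes, CCA1 had overlapping values in Aa-0 and Per-1, and LHY was higher in both Per-1 libraries.

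In Col-0×Per-1 against Per-1, 3 of the 9 were called lower, where 7.75% of all genes were called. FKF1 was at -1.48 ± 0.29 (SE; limma adjusted p = 0.0142), LUX at -1.43 ± 0.33 (SE; limma adjusted p = 0.0297) and ELF3 at -0.71 ± 0.14 (SE; limma adjusted p = 0.0138). ELF4, at -0.73 ± 0.25 (SE; limma adjusted p = 0.12), TOC1, at -0.73 ± 0.25 (SE; limma adjusted p = 0.123), and GI, at -0.43 ± 0.14 (SE; limma adjusted p = 0.0979), were not. Without Per-1 replicate 1 or without Col-0×Per-1 replicate 2, the library of lowest relative depth, 0 were called. In Col-0×Aa-0 against Aa-0 limma called 0 of the 9, with 0 at an unadjusted p under 0.05 and 3.77% of all genes called, and the differences ran from -0.08 ± 0.25 for ELF4 to 0.40 ± 0.29 for FKF1 (SE).

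**Figure D5:**
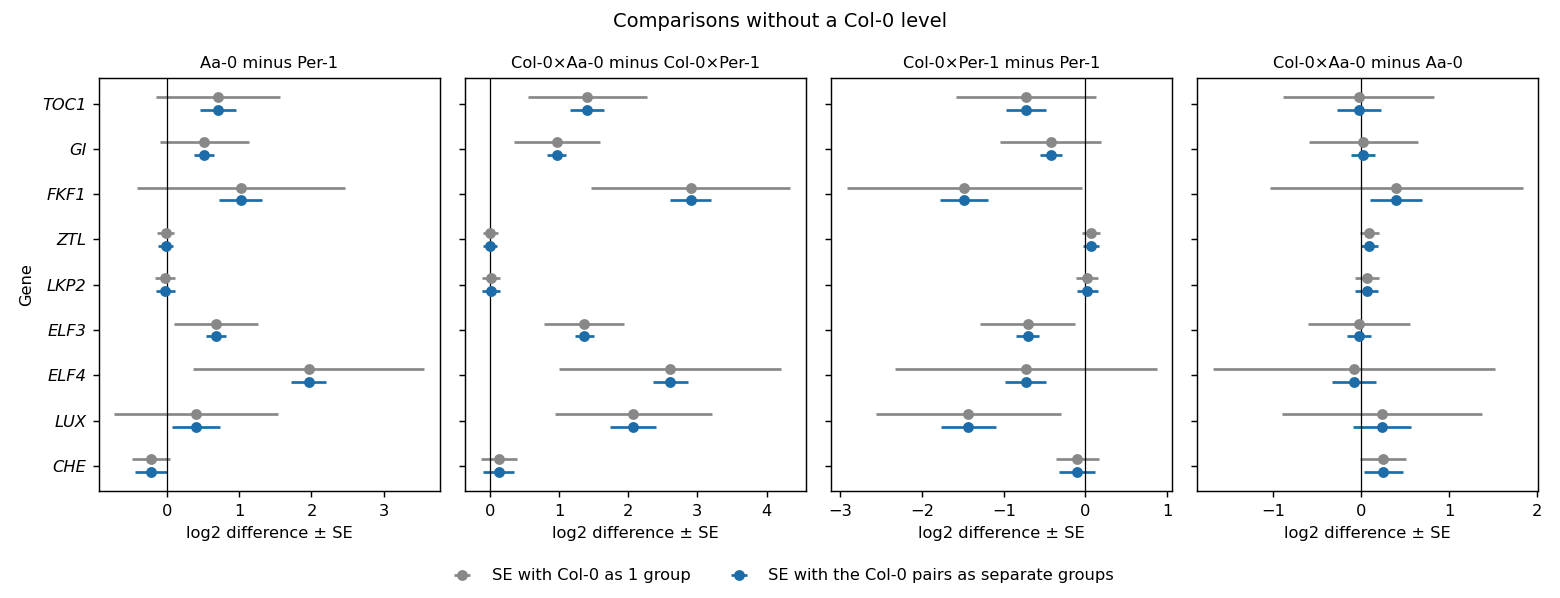
Log2(FPKM + 1) difference for the 9 genes in the comparisons that use no Col-0 level, with the SE from the test with Col-0 as 1 group (grey) and from the test with the Col-0 pairs as separate groups (blue); each panel has its own horizontal scale. Points coincide and only the errors differ, as for ELF4 between the hybrids at 2.61 with an SE of 1.60 or 0.25.

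The other gene groups were read in the tests with Col-0 as 1 group. Calls in the clock genes, evening relatives and evening complex partners came from Aa-0 minus Col-0 and Per-1 minus Col-0. In these comparisons 16.7% and 25.7% of all genes were called. For genes apart between the Col-0 pairs, 10 of the 15 morning and day genes among them, the errors carry that spread. Of the 15 morning and day clock genes 1 was called in any comparison, RVE2, a MYB-like relative of CCA1, lower in Aa-0 than in Col-0, at -1.09 ± 0.31 (SE; limma adjusted p = 0.0396). Of 5 tested evening relatives, ELF4-L3 was higher in Aa-0 than in Col-0, by 1.02 ± 0.22 (SE; limma adjusted p = 0.0112), and ELF4-L2 was lower in Per-1 than in Col-0, at -0.48 ± 0.15 (SE; limma adjusted p = 0.0461). Levels of ELF4-L3, at 0.67 to 3.38 FPKM over the libraries, and of RVE2, at 0.29 to 4.11 FPKM, were low and near the filter. Among 6 targets and partners of the evening complex, PHYB, a red-light receptor, was lower in Aa-0 than in Col-0, at -0.41 ± 0.12 (SE; limma adjusted p = 0.0431), and COP1, a light-signalling repressor, lower in Per-1, at -0.48 ± 0.14 (SE; limma adjusted p = 0.0282). With median-ratio scaling, which sets the median of all genes near 0, the limma calls of RVE2 (adjusted p = 0.0513), PHYB (adjusted p = 0.163), ELF4-L2 (adjusted p = 0.168) and COP1 (adjusted p = 0.163) were lost. They were also lost without any 1 of 10 libraries for RVE2 and PHYB, 9 for ELF4-L2 and 2 for COP1, and that of ELF4-L3 was lost without Aa-0 replicate 2. With Col-0 replicates 1 and 2 alone as Col-0, the calls of RVE2 (limma adjusted p = 0.0679) and ELF4-L2 (limma adjusted p = 0.144) were lost. With replicates 3 and 4 alone, those of PHYB (limma adjusted p = 0.0977) and COP1 (limma adjusted p = 0.0574) were lost. ELF4-L3 was called with either pair. Of the 2 evening-phased outputs, the 5 partners in protein breakdown and light sensing and the 7 leaf mesophyll genes, 0 were called in any comparison. The share of all genes called ran from 0.238% to 25.7% over the comparisons.

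CDF5, a DOF factor and 1 of the 4 tested day-length genes, was the 1 listed gene called in more than 1 comparison. It had 1.86, 2.53, 1.95 and 2.06 FPKM in Col-0 replicates 1 to 4, 0.56 and 0.28 FPKM in Aa-0 and 0.24 and 0.31 FPKM in Per-1. The hybrids had 1.82 and 1.17 FPKM in Col-0×Aa-0 and 1.34 and 1.77 FPKM in Col-0×Per-1. Aa-0 and Per-1 overlapped each other and lay below every other library, and the Col-0 pairs overlapped. Every Aa-0 and Per-1 value was under 1 FPKM, so CDF5 passed the filter on low values through Col-0 and the hybrids. Whether reads of the Aa-0 and Per-1 alleles match the TAIR10 genome as well as those of Col-0 was not tested. CDF5 was lower than in Col-0, at -1.13 ± 0.15 in Aa-0 (SE; limma adjusted p = 0.000646) and -1.28 ± 0.15 in Per-1 (SE; limma adjusted p = 0.000231), and both calls held under every alternative run. It was higher than in the other parent by 0.81 ± 0.17 in Col-0×Aa-0 (SE; limma adjusted p = 0.0348) and by 1.00 ± 0.17 in Col-0×Per-1 (SE; limma adjusted p = 0.0074). The first of these was lost with median-ratio scaling (limma adjusted p = 0.0607) and without any 1 of 8 libraries, and the second without Per-1 replicate 1 or Col-0×Per-1 replicate 2. CDF5 overlaps a non-coding RNA on the other strand, and reads from the 2 cannot be told apart with this kit.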

How the data were processed

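Values were FPKM as deposited by the authors, 1 file per library. The authors used the TAIR10 genome with Cufflinks 2.0.2, TopHat2 2.0.8b, TopHat and edgeR 3.12.0, per the submitters' processing notes; the sources used here do not say which of these gave the FPKM or what was filtered. Sample labels were followed where the description of the series differs, in naming Ler-1 for Per-1 and 2 libraries per group for the 4 of Col-0. Whether reads of Aa-0, Per-1 and the hybrids match the TAIR10 genome as well as reads of Col-0 was not tested for any gene. No library was a copy of another (largest share of identical values 0.837%).

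With R 4.3.3 and limma 3.58.1 (eBayes with trend), log2(FPKM + 1) was fitted for 17203 genes (1 FPKM or more in 2 or more libraries). The fit took all 12 libraries in 5 groups (7 residual degrees of freedom). Simulated data on which it was tried held no split of the Col-0 libraries, so that trial does not bear on the split. Adjusted p-values are Benjamini-Hochberg over all genes tested. Alternatives took each Col-0 pair alone, both pairs as separate groups (6 residual degrees of freedom), other scalings, pseudocounts and filters, a replicate block, and each library left out. Mid-parent errors used the delta method.

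The 9 genes and the other lists were chosen with earlier results of these data known. Named were the 9 genes in every comparison, CCA1, LHY, PRR9, PRR7 and PRR5 by library, called members of the lists (at most 4 per list and comparison), and the 3 nearest profiles of each gene spanning at least 1 on the log2 scale. Listed genes named between the Col-0 pairs were named after their values were seen. Promoters came from the TAIR10.1 genome and annotation, in which 31416 of the 34133 identifiers were found; the deposited files hold no coordinates. Python 3.11.15, pandas 2.3.3 and matplotlib 3.10.9 made tables and plots.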

Additional observations from a re-analysis of the deposited data

How the results depend on the processing

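With Col-0 as 1 group, 0 of the 9 genes were called in each of the 10 comparisons and in the difference between the hybrids' deviations, also with a pseudocount of 0.1 FPKM, no filter on low values, median-ratio scaling, quantile normalization and, for the mid-parents, the mean of log2 values. Leaving out each library in turn gave 0 to 1 called in Col-0×Per-1 minus Col-0 (1, TOC1, without Col-0 replicate 2) and 0 elsewhere. Median-ratio scaling moved the median of all genes from -0.136 to 0.00259 in Aa-0 minus Col-0, from -0.191 to -0.000365 in Per-1 minus Col-0 and from -0.228 to 0.00395 in Col-0×Per-1 minus Col-0, and the higher and lower calls in the first from 812 and 2058 to 1271 and 1280. The 6 genes apart between the Col-0 pairs stayed 6 in all settings that hold both pairs.

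With Col-0 replicates 1 and 2 alone, then replicates 3 and 4 alone, the counts called were 6 and 6 (Aa-0 minus Col-0), 5 and 6 (Per-1 minus Col-0), 6 and 5 (Col-0×Aa-0 minus Col-0), 0 and 6 (Col-0×Per-1 minus Col-0), 0 and 6 (Col-0×Per-1 minus its mid-parent), 3 and 4 (Aa-0 minus Per-1, with 15.3% and 14.1% of all genes called), 3 and 3 (Col-0×Per-1 minus Per-1, 6.97% and 6.44%), 6 and 6 (between the hybrids, 7.19% and 7.25%) and 0 and 5 (difference between the hybrids' deviations, 0.511% and 0.909%). The shares for the first 5 stand in the report. With the Col-0 pairs as separate groups and their mean as Col-0, they were 3 in Per-1 minus Col-0, where 36.3% of all genes were called, 4 in Aa-0 minus Per-1 (16.5%), 6 in Col-0×Per-1 minus Col-0 (32.3%), 3 in Col-0×Per-1 minus Per-1 (7.75%), 6 in Col-0×Per-1 minus its mid-parent (10.7%), 6 between the hybrids (9.37%) and 4 in the difference between the hybrids' deviations (1.37%). Leaving out each library in turn with the pairs as separate groups, an alternative added after seeing the data, gave 1 to 4 for Aa-0 minus Per-1, 0 to 3 for Col-0×Per-1 minus Per-1, 4 to 6 between the hybrids and 0 for Col-0×Aa-0 minus Aa-0; a lone library was assumed to vary like the other groups.

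The replicate block gave 6 in Aa-0 minus Col-0, where 21.0% of all genes were called, 4 in Per-1 minus Col-0 (25.0%), 2 in Aa-0 minus Per-1 (12.3%), 6 in Col-0×Aa-0 minus Col-0 (11.0%), 3 in Col-0×Per-1 minus Per-1 (5.84%) and 6 between the hybrids (4.62%). By its construction, replicates 3 and 4 take levels of their own and the Col-0 comparisons rest on replicates 1 and 2. Correlations between groups of the difference between replicates 1 and 2 ran from -0.585 to 0.369. They were positive among Col-0, Per-1 and Col-0×Per-1, and negative between each of these and Col-0×Aa-0. Whether libraries of equal number share more than the number was not tested.

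Directions turned against 1 Col-0 pair, whose opposite levels are given in the report. The values given are those of differences called under either setting; others that were not called also changed sign. Log2 differences that reversed with Col-0 replicates 1 and 2 alone were 1.00 for TOC1 and 1.52 for LUX in Aa-0 minus Col-0, 0.98 for TOC1 in Col-0×Aa-0 minus Col-0, and 0.77 for GI, 1.63 for FKF1, 0.49 for ELF3, 0.85 for ELF4 and 1.12 for LUX in Per-1 minus Col-0. The replicate block gave these same values, with ELF3 not called. With replicates 3 and 4 alone, Aa-0 minus Col-0 reversed to -0.60 for GI, -1.77 for FKF1, -0.61 for ELF3 and -2.15 for ELF4, and Col-0×Aa-0 minus Col-0 to -0.58 for GI, -1.37 for FKF1, -2.24 for ELF4 and -1.64 for LUX.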
